A study of Homo sapiens with 4 samples.

Results

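The human globin genes and their regulators were examined in a TT-seq comparison of K562 cells with and without the transcription elongation factor IWS1. The members were 10 genes, taken by gene name from the deposited table: the α-like genes *HBZ*, *HBA1* and *HBA2*, the β-like genes *HBE1*, *HBG1*, *HBG2* and *HBB*, the α-globin chaperone gene *AHSP*, and the genes of the γ-globin repressors *BCL11A* and *ZBTB7A*. Of these 10, 5 were among the 10147 genes of the table (*HBZ*, *HBE1*, *HBG1*, *HBG2* and *ZBTB7A*). *HBA1*, *HBA2*, *HBB*, *AHSP* and *BCL11A* are not listed there and have no value.

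K562 is a human chronic myelogenous leukemia line with erythroid features. In all samples, controls included, the cells were genome edited and carried an N-terminal dTAG on IWS1, a tag through which the ligand dTAG7 directs the protein to degradation. Control cells received the solvent DMSO and dIWS1 cells 500 nM dTAG7, each for 1 h, after which RNA was labelled with 500 µM 4-thiouridine (4sU) for 5 min in samples of equal cell number. TT-seq reads come from RNA made during such a pulse, so a gene's reads follow its synthesis and not its stored mRNA. The labels give 2 control and 2 dIWS1 libraries. The table holds no value per library, but its mean per gene could be split into whole reads of 3 different columns, 1 for control (entered 2 times into the mean) and 2 for dIWS1. All tests below therefore set 1 control column against 2 dIWS1 columns, and the control column was assumed to vary as the dIWS1 columns do. Nothing ties a column to a numbered library, so the dIWS1 columns are named column 1 and column 2 here. The split gave 27966597 reads in genes for control, 19445716 for dIWS1 column 1 and 19669825 for column 2. Normalized read counts below are these reads divided by size factors computed back from the mean, which the authors set from spike-in RNA.

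Hemoglobin is a tetramer of α-like and β-like globin chains. The α-like genes lie together near the end of the short arm of chromosome 16 and the β-like genes on chromosome 11, where a distal enhancer region, the locus control region, drives one gene after another from embryo to adult. *HBZ* (ζ) and *HBE1* (ε) are the embryonic members, *HBG1* and *HBG2* (γ) the fetal ones and *HBB* the adult one, and BCL11A and ZBTB7A (also LRF) are the zinc finger proteins best known for keeping the γ genes silent in adult erythroid cells. The chromatin of K562 cells is in the embryonic and fetal state, and the line is known for making ε, γ and ζ globin with little or no β globin. Of 10 erythroid markers reported (*GATA1*, *TAL1*, *KLF1*, *NFE2*, *TFRC*, *EPOR* and the 4 listed globins) all 10 were in the table, with 129 to 16164 control reads. Of the other markers, 1 of 5 lymphoid genes (*CD3D*, 135 control reads), 1 of 4 myeloid genes (*LYZ*, 60) and 2 of 4 epithelial genes (*KRT8* and *KRT18*, 945 and 2777) were listed, and their part in the results was not tested.

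Only uniquely aligned reads were counted by the authors, and several globin genes are near copies of one another. The sequence itself was therefore examined first. Each gene span was cut into all windows of 32 bases, and each window was looked up on both strands of the GRCh38 chromosomes. For *HBG1* 37% of windows occurred once in the genome and 61.9% also occurred in *HBG2*, and for *HBG2* the shares were 37% and 61.7%. For *HBZ* 33.7% occurred once. The adult α genes were less distinct, with 20.7% of windows occurring once in *HBA1* (79.3% also in *HBA2*) and 19.9% in *HBA2* (80.1% also in *HBA1*). In contrast, *HBE1* (98.9%), *HBB* (91.4%), *AHSP* (100%), *BCL11A* (97.3%) and *ZBTB7A* (92.4%) were distinct over nearly their whole span. Thus the genes missing from the table included 2 near copies and 3 distinct genes, and in *HBG1*, *HBG2* and *HBZ* 33.7 to 37% of windows occur once. Reads were sequenced in pairs, and where in a gene the counted pairs lie was not tested. Whether a missing gene was below the authors' read threshold, overlapped another gene or lost its reads as multiple alignments was not tested.

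**Figure D1:**
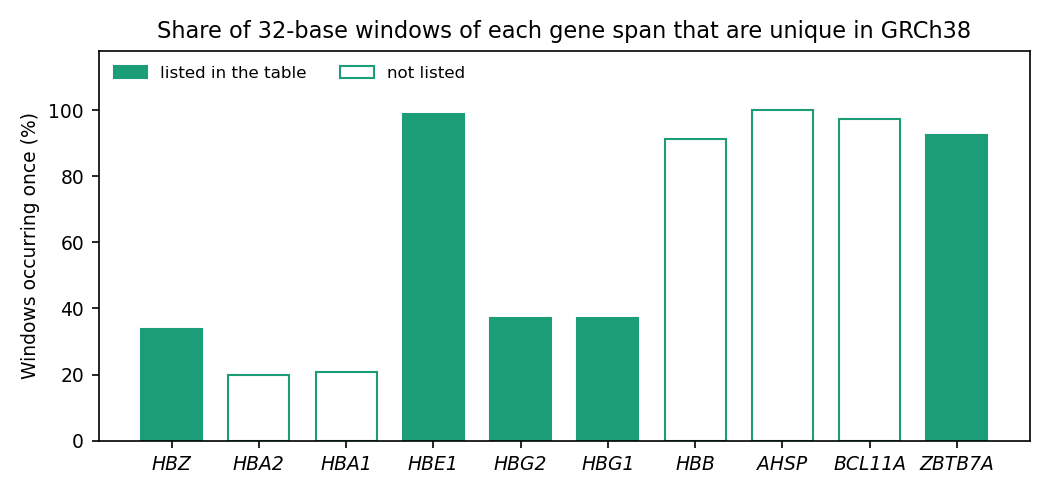
Share of 32-base windows of each gene's span, in percent on the vertical axis, that occur once on the GRCh38 chromosomes, for the 10 members. Filled bars are genes listed in the table and open bars are genes not listed. *HBA1* and *HBA2*, at 20.7% and 19.9%, have the lowest shares, and *HBB*, *AHSP* and *BCL11A* are not listed although their shares are 91.4% or more.

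*HBZ* (GRCh38, chr16:152644-154503, plus strand), the embryonic α-like gene, had 173 control reads and 92 and 82 reads in the dIWS1 columns. The normalized read counts were 171 in control, 92.6 in column 1 and 89.2 in column 2. Both dIWS1 columns lay below the control column and close to each other. RNA synthesis from *HBZ* fell by 0.91 on the log2 scale (SE 0.19, 95% interval -1.29 to -0.54, limma adjusted p = 2.91e-05), the furthest fall among the 5 listed members. Of the genes tested, 4.91% had a difference below that of *HBZ*.

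*HBE1* (chr11:5268345-5269945, minus strand), the embryonic β-like gene, had 189 control reads and 114 and 116 reads after IWS1 depletion. Its normalized read counts were 187 in control, 115 in column 1 and 126 in column 2. Again both dIWS1 columns lay below control. The difference was -0.64 (SE 0.18, 95% interval -0.98 to -0.29, limma adjusted p = 0.00158), with log2 ratios to control of -0.70 and -0.57 in the single columns.

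The fetal γ genes were not called. *HBG1* (chr11:5248269-5249857, minus strand) had 157 control reads and 165 and 162 dIWS1 reads, that is, normalized read counts of 156, 166 and 176. Both dIWS1 columns lay slightly above control, with log2 ratios of 0.10 and 0.18. The difference of 0.14 did not pass the test (SE 0.17, 95% interval -0.19 to 0.47, limma adjusted p = 0.461). *HBG2* (chr11:5253188-5254781, minus strand) had 129 control reads and 107 and 150 dIWS1 reads, with normalized read counts of 128, 108 and 163. Here the control column lay between the dIWS1 columns, which differed from each other by 0.60 on the log2 scale. For comparison, column 2 exceeded column 1 by a median of 0.05, with an SD of 0.22, over the 811 genes with a mean of 100 to 200 normalized counts. The difference for *HBG2* was 0.05 (SE 0.18, 95% interval -0.30 to 0.41, limma adjusted p = 0.794).

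*ZBTB7A* (chr19:4043303-4066899, minus strand) was the member with the most reads, 2761 in control, 1768 in column 1 and 1882 in column 2. Its normalized read counts were 2735, 1780.1 and 2047, with both dIWS1 columns below control. RNA synthesis from *ZBTB7A* fell by 0.52 on the log2 scale (SE 0.18, 95% interval -0.87 to -0.17, limma adjusted p = 0.00984). The tagged gene itself, *IWS1*, had 3684 control reads and 2334 and 2427 dIWS1 reads (difference -0.55, SE 0.18, limma adjusted p = 0.00771). dTAG7 acts on the IWS1 protein, so these RNA values do not check its depletion.

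**Figure D2:**
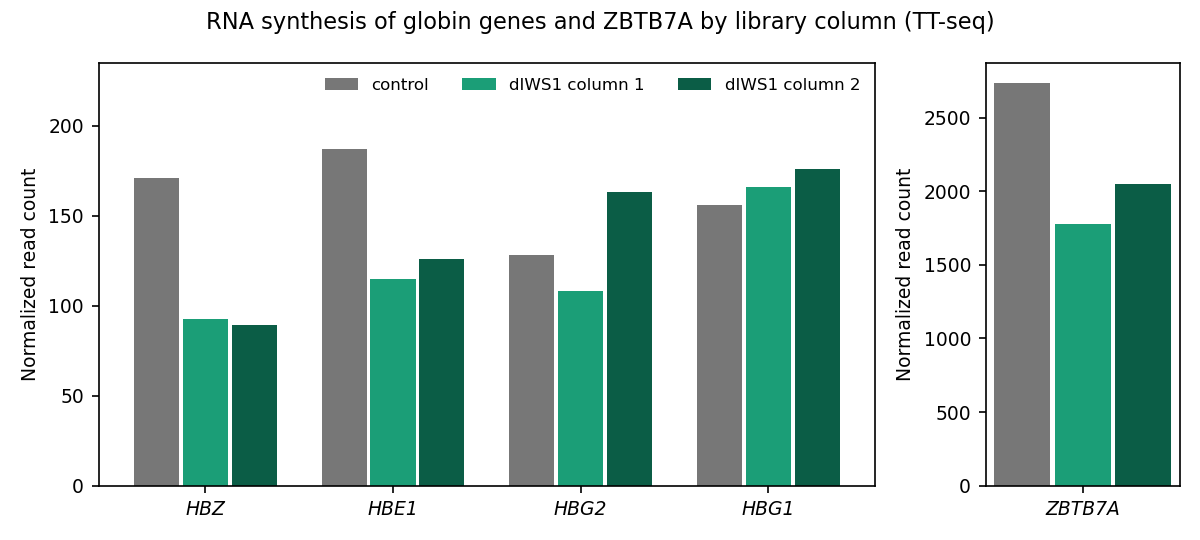
Normalized read counts (vertical axes, from 0) of the 5 listed members in the control column and both dIWS1 columns. The left panel holds the 4 globin genes and the right panel *ZBTB7A*, which has its own scale. Both dIWS1 bars stand below control for *HBZ*, *HBE1* and *ZBTB7A*, both slightly above it for *HBG1*, and on either side of it for *HBG2*.

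These values have to be read against a decrease in most genes. Of 9883 genes tested, 5421 were lower in dIWS1 (54.9%) and 8 were higher (0.0809%). The median difference was -0.42 (quartiles -0.59 and -0.26), and 96.8% of genes were below 0. Of the 5 listed members, 3 were lower, 0 were higher and 2 were not called, a share close to that of all genes. The median of the members was -0.52. The γ genes stood near the top of the distribution. There were 93 genes, *HBG1* included, at or above *HBG1* (percentile 99.1), and 191 were at or above *HBG2* (98.1). *HBE1* stood at percentile 20.4 and *ZBTB7A* at 35.4, well inside the range of other genes.

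From the differences of the same fit the median difference was then subtracted, so that a difference is one relative to the median gene. The single columns were not centred and the standard errors were kept. The offset between the dIWS1 columns (median log2 ratios to control of -0.47 and -0.37) therefore stayed in those errors. Then 278 genes were lower (2.81%) and 125 higher (1.26%), and of the 5 members 0 were lower and 1 was higher. That gene was *HBG1*, at 0.56 above the median gene (95% interval 0.23 to 0.89, limma adjusted p = 0.0284). *HBG2* was at 0.48 (adjusted p = 0.127), *ZBTB7A* at -0.10 (adjusted p = 0.836), *HBE1* at -0.21 (adjusted p = 0.608) and *HBZ* at -0.49 (adjusted p = 0.147). The calls of *HBZ*, *HBE1* and *ZBTB7A* thus hold under the spike-in scaling, and their differences from the median gene did not pass the test. The spike-in scaling itself could not be checked, since no spike-in reads were used here.

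**Figure D3:**
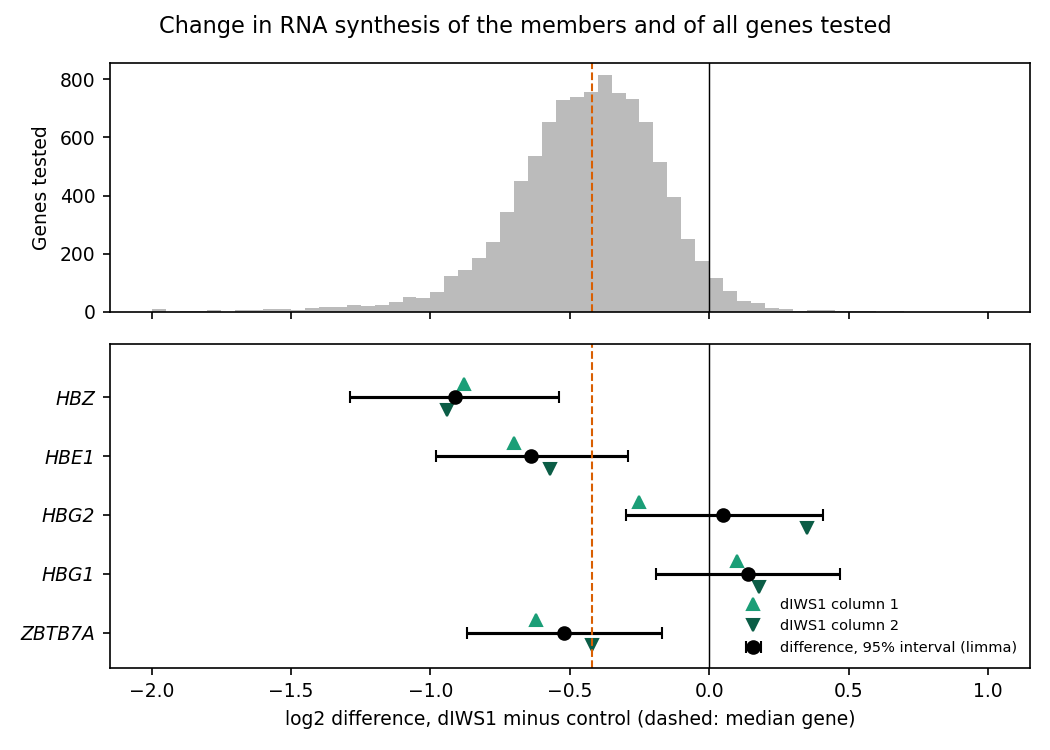
Upper panel, number of genes tested by log2 difference, dIWS1 minus control, in bins of 0.05. Lower panel, the same quantity for the 5 members with its 95% interval from limma, and the log2 ratio of each dIWS1 column to control as triangles. The dashed line marks the median gene at -0.42. *HBG1* and *HBG2* sit at 0.14 and 0.05, to the right of nearly all genes, and the *HBG2* triangles lie furthest apart.

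Shares within a column do not depend on scaling. The γ genes together took 286 of the 475 reads of *HBE1*, *HBG1* and *HBG2* in control, or 60.2% (95% exact Clopper-Pearson interval 55.7 to 64.6%). In the dIWS1 columns they took 272 of 386 (70.5%, 65.6 to 75%) and 312 of 428 (72.9%, 68.4 to 77.1%). Both dIWS1 shares lay above the control share, with intervals that did not overlap its own. These intervals cover counting error only, reads without molecular identifiers are not independent molecules, and with 1 control column the share has no replicate check on that side. Summed, the γ genes had normalized read counts of 283 in control, 274 in column 1 and 339 in column 2, with column 1 at -0.05 and column 2 at 0.26 against control.

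*HBG1* took 54.9% of γ reads in control (48.9 to 60.8%), 60.7% in column 1 (54.6 to 66.5%) and 51.9% in column 2 (46.2 to 57.6%). The control share lay between those of the dIWS1 columns and no shift from one γ gene to the other was detectable at this depth. *HBZ* took 173 of the 648 reads of the 4 listed globin genes in control (26.7%, 23.3 to 30.3%), 92 of 478 in column 1 (19.2%, 15.8 to 23.1%) and 82 of 510 in column 2 (16.1%, 13 to 19.6%). Both dIWS1 shares were below the control share, and their intervals did not overlap its own.

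Levels were compared between genes per kb of gene span, as normalized read counts in control, where the median over 9872 genes was 41.2. *HBE1* (117 per kb) and *ZBTB7A* (116) led, followed by *HBG1* (97.9), *HBZ* (92.1) and *HBG2* (80.2). All 5 were between percentiles 76.3 and 87.5, and with 1 control column this order has no spread to be set against. In dIWS1 *HBG1* led with 105 and 111 per kb in columns 1 and 2, above both columns of every other member. *ZBTB7A* (75.4 and 86.7), *HBE1* (71.7 and 78.8) and *HBG2* (67.6 and 102) overlapped one another, and *HBZ* was lowest with 49.8 and 47.9. Divided instead by the length of windows occurring once, the control levels were 278 per kb for *HBZ*, 270.0 for *HBG1*, 221 for *HBG2*, 126 for *ZBTB7A* and 121 for *HBE1*. The order of the levels therefore turns on how multiple alignments are allowed for, while a difference between conditions within a gene does not use the length.

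The β-globin cluster holds further transcripts. *BGLT3*, a noncoding RNA gene between *HBBP1* and *HBG1* known as a positive regulator of γ-globin, had 332 control reads and 237 and 248 dIWS1 reads. Its normalized read counts were 329, 239 and 269.7, and it fell by 0.37 on the log2 scale (SE 0.15, limma adjusted p = 0.0267), near the median gene. With no filter on low values the call of *BGLT3* was lost (adjusted p = 0.0738). *HBG1* took 32.1% of the reads of *HBG1* and *BGLT3* in control (28 to 36.4%), 41% in column 1 (36.2 to 46%) and 39.5% in column 2 (34.7 to 44.4%), so the share was higher in both dIWS1 columns, with intervals that overlapped that of control at their ends. *HBBP1*, a β-like pseudogene next to *BGLT3*, had 53 control reads and 59 and 39 dIWS1 reads (difference -0.06, SE 0.28, limma adjusted p = 0.84), too few to place it. Both genes are above 0 when set against the median gene or scaled by total reads.

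On the other side of *HBE1*, the olfactory receptor gene *OR51B4* lies 31068 bases beyond the *HBE1* span. It had 178 control reads and 116 and 109 dIWS1 reads with a difference of -0.58 (SE 0.18, limma adjusted p = 0.00418), close to *HBE1*. *HBG2*, *HBG1* and *BGLT3* start 15.2, 20.1 and 24.4 kb from the start of *HBE1* on its other side. Of 10 tested genes listed for the β cluster and the chromosome around it (out of 20), 4 were lower, 0 higher and 6 not called. Their median was -0.32, beside 54.9% lower and a median of -0.42 over all genes tested. Apart from *HBBP1*, *BGLT3* and *OR51B4*, these genes start 661.7 to 1472.4 kb from the start of *HBE1*. The furthest fall in this list was that of *NUP98*, a nuclear pore gene 1472.4 kb from *HBE1* (-0.67, SE 0.19, adjusted p = 0.00153), and the highest value was that of *TRIM3* (0.16, SE 0.17, adjusted p = 0.393). *TRIM3* had 158 control reads and 154 and 181 dIWS1 reads, and it was the 1 listed gene called higher relative to the median gene (0.58, adjusted p = 0.0196). *RHOG* (-0.31, adjusted p = 0.0985) and *PGAP2* (-0.33, adjusted p = 0.0443) were nearer the median.

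At the α-globin cluster, genes on both sides of *HBZ* were lower as well. *NPRL3*, whose introns hold the main α-globin enhancers, had 2351 control reads and 1229 and 1205 dIWS1 reads with a difference of -0.87 (SE 0.17, limma adjusted p = 6.7e-06). *HBZ* took 6.85% of the reads of *HBZ* and *NPRL3* in control (5.9 to 7.91%), 6.96% in column 1 (5.65 to 8.47%) and 6.37% in column 2 (5.1 to 7.85%), so no change of *HBZ* against *NPRL3* was detectable at this depth. *RHBDF1* (161, 86 and 79 reads, difference -0.88, SE 0.20, adjusted p = 7.58e-05) and *MPG*, a DNA glycosylase gene (-0.75, SE 0.15, adjusted p = 7.84e-06), lay further out on the same side. Beyond them, *POLR3K* (-0.18, adjusted p = 0.261) and *SNRNP25* (-0.31, adjusted p = 0.087) were not called. *HBQ1* (θ), the one other globin gene of 7 looked for that is in the table, had 44 control reads and 30 and 24 dIWS1 reads (-0.63, SE 0.36, adjusted p = 0.125). Its interval ran from -1.34 to 0.09, and *HBQ1* passed the test with limma voom (adjusted p = 0.0472) and with no filter on low values (adjusted p = 0.0193). On the side of *HBQ1*, *FAM234A* (-0.71, adjusted p = 3.27e-05), *RAB11FIP3* (-0.70, adjusted p = 7.22e-05), *MRPL28* (-0.66, adjusted p = 0.000281), *TMEM8A* (-0.57, adjusted p = 0.000844), *AXIN1* (-0.51, adjusted p = 0.014), *DECR2* (-0.38, adjusted p = 0.0313) and *NME4* (-0.34, adjusted p = 0.0381) were lower, of which all but *NME4* are named to complete the count and not by the rule. *LUC7L* (-0.41, adjusted p = 0.0535) and *ARHGDIG* (-0.83, adjusted p = 0.295) on that side, also outside the rule, were not called. Of 14 tested neighbours of the α cluster (out of 16), 10 were lower, 0 higher and 4 not called, with a median of -0.61. Over all genes tested, 54.9% were lower and the median was -0.42. Relative to the median gene, 0 of the 14 were lower, beside 2.81% of all genes. That fit keeps the offset between the dIWS1 columns in its errors. Scaled by total reads, with smaller errors, *NPRL3* was lower at -0.43 (limma adjusted p = 3.1e-05). So were *RAB11FIP3* (-0.27, adjusted p = 0.0203) and *FAM234A* (-0.27, adjusted p = 0.0333), beside 12.8% of all genes. The other neighbours tested were not called under that scaling.

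**Figure D4:**
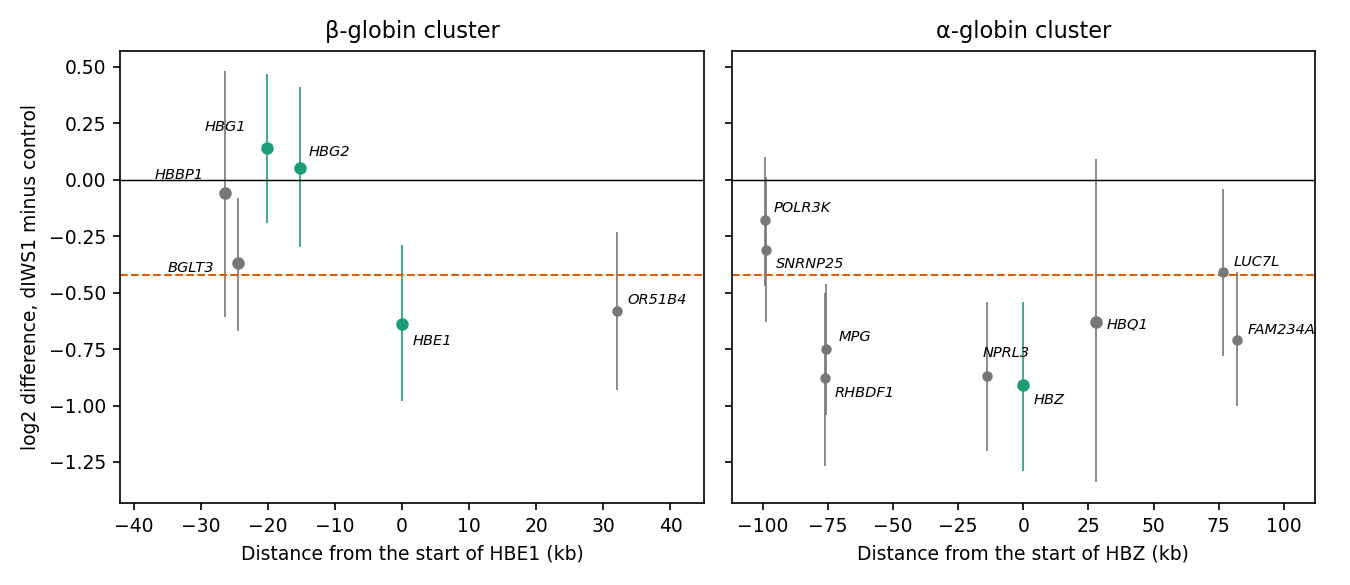
Log2 difference, dIWS1 minus control, with 95% intervals from limma, against the distance of each gene's start from that of *HBE1* (left) or *HBZ* (right) in kb, positive toward higher coordinates. Members are green, other genes gray, and the dashed line marks the median gene. In the left panel *HBG1* and *HBG2* stand above *HBE1* and *OR51B4*, and in the right panel *HBZ*, *NPRL3*, *MPG* and *RHBDF1* lie between -0.91 and -0.75.

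Erythroid activators of the globin genes were next examined. These are factors that bind the promoters and distal enhancers, such as GATA1, TAL1 with its partners, KLF1 and NF-E2. Of 22 listed, 18 were in the table, of which 16 were lower, 0 higher and 2 not called (median -0.55), beside 54.9% lower and a median of -0.42 over all genes tested. Relative to the median gene, 0 of the 18 were lower, beside 2.81% of all genes. Scaled by total reads, with smaller errors, *SMARCA4* (-0.24, limma adjusted p = 0.00323) and *TCF3* (-0.24, adjusted p = 0.00771) were lower and *NFE2* was higher. *KLF1* (-0.34, adjusted p = 0.107) was not called under that scaling. *KLF1*, the erythroid Krüppel-like factor that binds CACCC boxes, fell furthest, from 295 control reads to 163 and 162 (-0.78, SE 0.16, limma adjusted p = 1.64e-05). *SMARCA4* (-0.68, adjusted p = 0.00159), the BRG1 remodeler ATPase, and *TCF3* (-0.67, adjusted p = 0.000975), a partner of TAL1, followed. The 3 highest were *NFE2* (-0.08, adjusted p = 0.72), *GATA1* (-0.34, adjusted p = 0.063) and *USF1* (-0.38, adjusted p = 0.0286). *NFE2*, the erythroid subunit of NF-E2, had 4659 control reads and 4244 and 4127 dIWS1 reads, with normalized read counts of 4615, 4273 and 4489. Relative to the median gene it was at 0.35 (adjusted p = 0.362), and scaled by total reads it was at 0.36 (adjusted p = 3.01e-05).

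Of 34 listed genes of γ-globin silencing other than *BCL11A* and *ZBTB7A*, 25 were in the table. Of these, 18 were lower, 0 higher and 7 not called (median -0.50), beside 54.9% of all genes lower. Relative to the median gene, 0 of the 25 were lower, beside 2.81% of all genes. Scaled by total reads, with smaller errors, *NFIX* (-0.42, limma adjusted p = 2.4e-05), *MTA1* (-0.34, adjusted p = 0.000126) and *MTA3* (-0.33, adjusted p = 6.7e-05) were lower. Under that scaling *RBBP7* (0.28, adjusted p = 0.00539) and *HDAC2* (0.26, adjusted p = 0.00252) were higher. *NFIX*, a nuclear factor I gene linked to γ silencing, went from 3443 control reads to 1701 and 1909 (-0.85, SE 0.18, limma adjusted p = 2.79e-05). *MTA1* (-0.78, adjusted p = 0.000211) and *MTA3* (-0.77, adjusted p = 0.00034), both of the NuRD complex that ZBTB7A and BCL11A recruit, were next. The highest values of the list were those of *RBBP7* (-0.16, adjusted p = 0.395) and *HDAC2* (-0.18, adjusted p = 0.386), also NuRD subunit genes, and of *BACH1*, a heme-regulated repressor (-0.29, adjusted p = 0.167). NuRD genes were thus spread over the list, and *MBD3* (-0.74, adjusted p = 2.88e-05), *GATAD2B* (-0.70, adjusted p = 0.000919) and *MTA2* (-0.41, adjusted p = 0.0181), named here outside the rule, were lower too. The remaining NuRD genes tested, *HDAC1* (-0.29, adjusted p = 0.144) and *RBBP4* (-0.35, adjusted p = 0.102), also outside the rule, were not called. *ZBTB7A* itself, at -0.52, lay beside the median of this list.

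Genes of the fetal erythroid stage were few. Of 5 listed, 4 were in the table, with 3 lower, 0 higher and 1 not called. Their median was -0.47, beside 54.9% lower and a median of -0.42 over all genes tested. *HIC2*, a repressor of *BCL11A*, was at -0.66 (adjusted p = 0.00115), *IGF2BP3* at -0.51 (adjusted p = 0.0135), *LIN28B* at -0.42 (adjusted p = 0.0414) and *IGF2BP1* at -0.33 (adjusted p = 0.121). Over all lists 51 of 72 genes were lower and 0 higher, against 54.9% and 0.0809% of all genes, and the median was -0.50. Relative to the median gene 0 were lower and 1 was higher, against 2.81% and 1.26% of all genes. Scaled by total reads, 19 were lower and 5 higher, beside 1264 and 1678 of the 9883 genes tested.

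**Figure D5:**
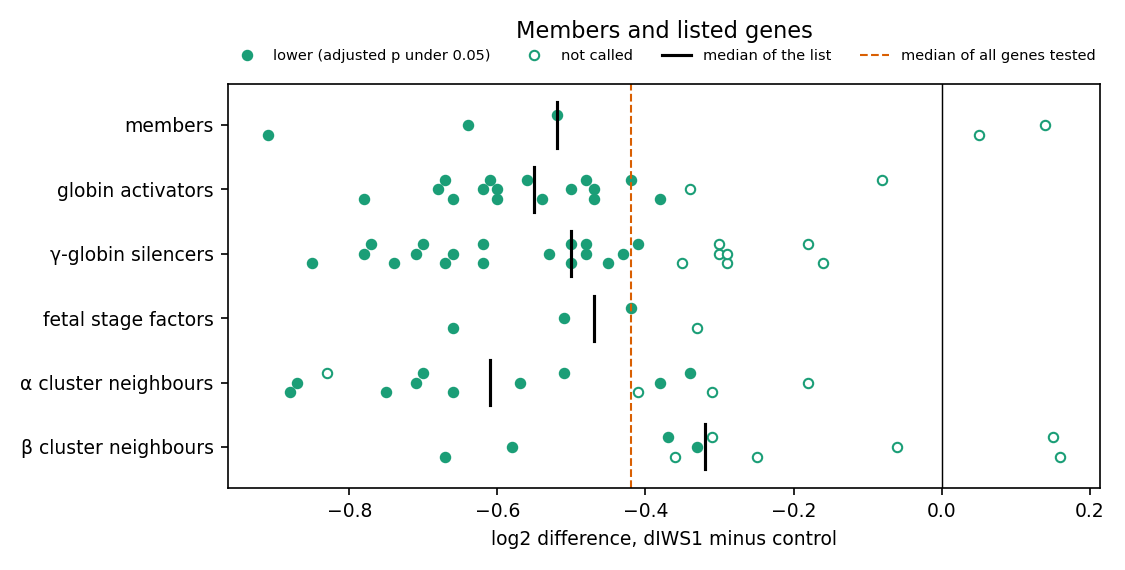
Log2 difference, dIWS1 minus control, of the 5 members and of each listed gene in the table other than *HBQ1*, 1 point per gene and 1 row per list. Filled points were lower at an adjusted p under 0.05 (limma), black bars mark list medians and the dashed line the median of all genes tested. The medians of the lists shown run from -0.61 for the α cluster neighbours to -0.32 for the β cluster neighbours, and the 2 members above 0 are the γ genes.

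*ZBTB7A* was the member measured most deeply, and its pattern was a common one. Among 8865 other genes with a mean of at least 100, 256 lay within 0.05 of it over both log2 ratios (Euclidean distance over the 2 dIWS1 columns), and the nearest were *BEX4* (distance 0.00674), *C5orf24* (0.00675) and *MIER2* (0.00714). *C5orf24* had ratios of -0.62 and -0.41 beside -0.62 and -0.42 for *ZBTB7A*. The start regions of *ZBTB7A* are shown with matches to the CACCC box, which the KLF1 protein binds. Whether KLF1 acts on *ZBTB7A* in these cells was not tested. Both RefSeq windows of 250 bases for *ZBTB7A* (GRCh38.p14, minus strand, 5′ to 3′) are printed with CACCC or its reverse complement GGGTG in capitals.
ZBTB7A, chr19:4066900-4067149: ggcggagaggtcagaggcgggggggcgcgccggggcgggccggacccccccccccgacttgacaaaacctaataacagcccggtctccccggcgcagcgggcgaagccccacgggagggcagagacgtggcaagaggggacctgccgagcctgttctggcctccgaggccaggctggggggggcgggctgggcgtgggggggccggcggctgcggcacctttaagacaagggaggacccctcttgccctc
ZBTB7A, chr19:4065530-4065779: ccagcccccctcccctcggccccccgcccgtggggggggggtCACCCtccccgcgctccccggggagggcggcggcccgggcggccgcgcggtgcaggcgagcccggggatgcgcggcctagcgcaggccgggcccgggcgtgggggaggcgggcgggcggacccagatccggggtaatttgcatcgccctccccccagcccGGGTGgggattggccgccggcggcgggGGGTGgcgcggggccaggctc
The upstream window held 0 and the downstream window 3 CACCC matches on either strand, where 54.7% of 35116 windows of that length held at least 1. Neither held the GATA motif AGATAA on either strand, which 9.17% of windows held. Both were rich in G and C, at 74.4% and 84%, beside a median of 58%. A match is a string of letters and not a measured binding site.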

How the data were processed

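TT-seq libraries were made from 2 control and 2 dIWS1 samples. Per the labels and methods, the authors used STAR 2.6.0 to map reads to GRCh38 extended by the spike-ins, allowed 1 alignment per read, and counted fragments strand by strand over RefSeq genes. By the paper's methods, overlapping genes, and genes at or under an RPK of 10, were left out by the authors. However, 11 genes of the table had a mean of 0, and how the filter was applied was not tested. The authors made the deposited table with DESeq2. The deposited signal is the mean, made by the authors for each gene, of counts divided by spike-in size factors over 4 columns. The other columns hold the authors' log2 fold changes with standard errors, test scores, p-values and adjusted p-values, which are not reported here. The deposited log2 fold change was used only to tell which recovered column was which condition, and its direction, dIWS1 over control, was taken from the paper.

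Reads were recovered from the means alone. Every mean was a sum of whole multiples of 3 steps (0.4952 for control, 0.2517 and 0.2719 for dIWS1). Of 10136 genes with a mean above 0, 10102 had 1 solution and 34 had several and were left out. For 282 of the solved genes, all with means above 5000, the log2 ratio of the dIWS1 columns was required to lie within 0.3 of the median. Each listed member was searched in full and had 1 solution. The size factors were 1.01, 0.9932 and 0.9194. No column of sample values was left unmapped (0).

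The main test was limma 3.58.1 (R 4.3.3) with a mean-variance trend on log2(normalized read count + 0.5), on genes with a mean of at least 10, with 1 residual degree of freedom per gene and Benjamini-Hochberg adjustment over all 9883 genes (two-sided, threshold 0.05). The plan had foreseen counts or normalized values per library, and the recovered columns took their place. Where the 2 dIWS1 columns come from is known only from the labels, which call the libraries biological replicates. The recovery of reads and the limma test were also run on simulated data, which differ from these data. The recovery simulation held no means above 5000, so it does not check the condition used there. The limma simulation left most genes unchanged and changed the others equally in both directions, so it does not check a shift of most genes. The text names *IWS1*, every member, of each list up to 3 lowest and 3 highest genes with a mean of at least 100, and the 3 genes nearest to *ZBTB7A*. Of the cell type markers chosen, 1 is not reported here. Members and lists were chosen with earlier results of these data known. Gene positions and promoter windows came from RefSeq (GRCh38.p14), in which start windows were found for *ZBTB7A* alone among the listed members. Window searches used Python 3.11.15 with numpy 2.4.6. Alternatives were other pseudocounts, filters, thresholds and scalings, limma voom, the control column entered 2 times, and each dIWS1 column alone.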

Additional observations from a re-analysis of the deposited data

How the results depend on the processing

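The scaling decided most calls. Centred on the median gene, 278 genes were lower and 125 higher (69% of calls lower), and scaled by total reads 1264 and 1678 (43%), beside 99.9% of calls lower with the spike-in scaling. Of the members, 0 were then lower and 1 higher under either scaling. Centred and by total reads, the log2 differences were 0.56 and 0.57 for *HBG1* (adjusted p = 0.0284 and 0.0122), -0.21 and -0.20 for *HBE1*, -0.49 and -0.48 for *HBZ*, and -0.10 and -0.08 for *ZBTB7A*. *BGLT3* turned to 0.05 and 0.06 and *HBBP1* to 0.36 and 0.37. These alternatives remove the shift of the median gene (-0.42) by construction. Of the listed genes, 0 were lower and 1 higher when centred, 19 lower and 5 higher by total reads, and 33 lower at an adjusted p under 0.01, a stricter threshold, beside 51 lower in the report. With the control column entered 2 times, 7748 of all genes were lower and 51 higher, and 1 listed gene was higher. That setting repeats the same column and adds no control sample, so its larger counts are not stronger evidence. With no filter on low values 37 genes were higher, and limma voom called 6454 lower and 10 higher. Pseudocounts of 1 and 5 and a minimum mean of 100 changed no call of a member. Leaving out either dIWS1 column gave a value with no test, and *HBG2* then changed sign, from -0.25 in column 1 to 0.35 in column 2. The control column could not be left out. No paired analysis was possible because the recovered columns carry no replicate number and control is a single column. With 107 to 189 reads per column for *HBE1*, *HBG1* and *HBG2*, differences within their intervals cannot be resolved at this depth.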
